A study of Mus musculus with 2 samples.

Results

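FOS peaks in first introns are the regions of the FOS peak list that the authors' annotation placed in intron 1 of a gene, whatever the number of introns of that gene. There were 434 of them among 2374 FOS peaks (18.3%, exact Clopper-Pearson 95% interval 16.7 to 19.9). They were chosen by annotation alone, and the gene named in the annotation is called the host gene. The peaks came from chromatin immunoprecipitation and sequencing (ChIP-seq) with a FOS antibody in granulosa cells of wild-type female mice 25 days old, which had received PMSG and then hCG, and whose follicles were punctured 3 h after hCG to release the cells. PMSG drives follicle growth, and hCG stands in for the luteinizing hormone surge that brings on ovulation. Neither the strain nor the number of animals behind the library is stated in the sources used here. A library without an antibody in its label belongs to the series and was not analysed here. There is 1 FOS library, with no replicate, no cells without hCG and no read counts, so depth is unknown, no value carries an error between animals and no difference below was tested. Intervals cover counting error only. Peaks do not measure expression, so the labelled cell type could not be checked against its marker genes.

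FOS is a subunit of AP-1, a dimer of FOS and JUN family proteins. AP-1 is made within minutes to hours of many signals, the luteinizing hormone surge among them. It binds DNA letters such as TGAGTCA, searched for here by the wider pattern TGANTCA, where N is any letter. AP-1 is known for binding at enhancers, which often lie inside introns. A first intron begins close to the main promoter of its gene and may hold the promoters of shorter transcripts and enhancers for the host gene or for a neighbour.

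Sequence could be shown where a first-intron peak reached into the window around a transcription start site (TSS). A RefSeq table of promoter windows (GRCm38.p6, the assembly that mm10 names) gives 250 bases before and 50 after each TSS, and 16 of the 434 peaks touched such a window. The stretches before the TSS that lie inside the peak are printed for 3 genes with an AP-1 match and for Lmna as 1 without. Letters run 5′ to 3′ along the gene, and capitals mark TGANTCA. The pattern reads the same on both strands, so a single search covers both. Smim14, which encodes a small membrane protein, is shown at chr5:65484062-65484311 (minus strand), Csrnp1, an immediate early nuclear protein, at chr9:119983024-119983236 (minus strand), 1810058I24Rik at chr6:35256741-35256990 (plus strand) and Lmna, which encodes the nuclear lamins A and C, at chr3:88493313-88493418 (minus strand).
Smim14: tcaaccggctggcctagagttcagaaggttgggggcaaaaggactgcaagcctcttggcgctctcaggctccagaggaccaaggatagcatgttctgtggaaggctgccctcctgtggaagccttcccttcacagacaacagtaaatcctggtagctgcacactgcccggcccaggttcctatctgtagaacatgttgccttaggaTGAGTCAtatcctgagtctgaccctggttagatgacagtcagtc
Csrnp1: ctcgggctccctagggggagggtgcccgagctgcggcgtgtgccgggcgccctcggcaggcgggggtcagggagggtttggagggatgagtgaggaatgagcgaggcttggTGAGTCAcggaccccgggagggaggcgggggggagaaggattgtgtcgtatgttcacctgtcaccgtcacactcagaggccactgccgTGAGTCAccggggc
1810058I24Rik: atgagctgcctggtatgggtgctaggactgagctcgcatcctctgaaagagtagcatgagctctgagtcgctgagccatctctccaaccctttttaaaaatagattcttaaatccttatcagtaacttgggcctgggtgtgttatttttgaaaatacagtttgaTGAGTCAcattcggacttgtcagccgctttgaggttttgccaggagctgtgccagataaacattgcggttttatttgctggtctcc
Lmna: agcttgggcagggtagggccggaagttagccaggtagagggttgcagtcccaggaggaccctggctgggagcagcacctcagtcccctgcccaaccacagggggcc

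These 3 genes with a match had a RefSeq TSS under the peak that was farther off in the authors' table, while the peak of Lmna lay 331 bp from its TSS in both. In Smim14 the first base of TGAGTCA was 44 bases before the TSS, and the peak, of score 204, was centred 35 bp from that TSS although the authors' table gives 8739 bp to the nearest TSS it knew. In Csrnp1 the letters TGAGTCA occurred at 102 and again at 14 bases before the TSS, under a peak of score 160 centred 34 bp from it, against 1601 bp in the authors' table. In 1810058I24Rik they began 86 bases before the TSS, under a peak of score 50 centred 98 bp from it, against 4161 bp in the authors' table. A match was also found inside the peak just after the start of A130051J06Rik, a transcript that begins within intron 1 of Ano6, as TGATTCA beginning 13 bases after the TSS. The remaining match, TGAATCA beginning 1 base after the TSS of Pacrgl, lay under the lowest-scoring first-intron peak, at 13. Among the 16 peaks 5 held TGANTCA in the part of the window they covered, against 75 of 238 promoter peaks. Over whole windows of 300 bases, 5 of the 19 windows touched by first-intron peaks held it (26.3%), against 86 of 297 windows touched by promoter peaks (29.0%) and 2565 of all 32851 windows (7.81%). The letters of the cAMP response element, TGACGTCA, were in 2 of the 19 windows (10.5%), both outside the peaks, against 25 of the 297 promoter-peak windows (8.42%) and 1.79% of all windows. Such a match describes letters and does not show a bound site, and no sequence was used here for first-intron peaks outside these windows.

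**Figure D1:**
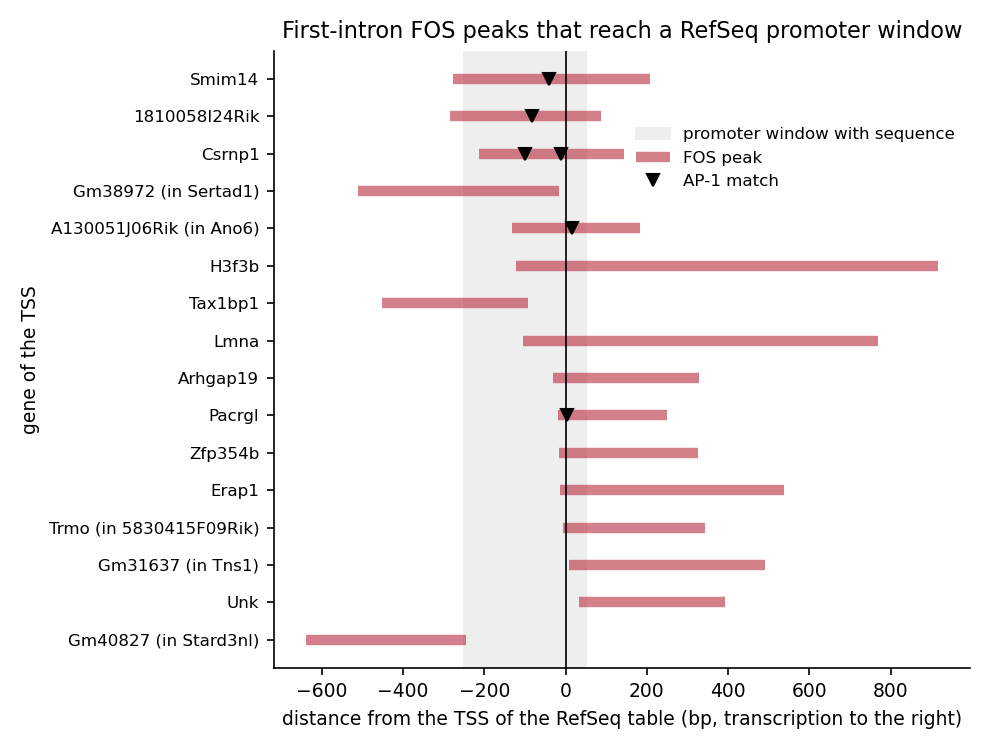
Position of the 16 first-intron FOS peaks that touch a RefSeq promoter window, in bp from the TSS of that window, with transcription to the right. Bars are peaks, the grey band is the window with sequence, and triangles mark TGANTCA inside the covered part, which 5 of the 16 peaks hold.

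There were 13 first-intron peaks that lay more than 1 kb from any TSS in the authors' table and within 1 kb of a TSS in the RefSeq window table. This was 13 of the 355 such peaks on chromosomes with windows, beside 8 of 604 for later introns. Besides Smim14, Csrnp1, 1810058I24Rik and Ano6, the 13 had the hosts Syne2, Pias3, Tns1, Mrpl48, Brd2, Cd151, Myo1e, Slc45a3 and Tgif1. In Ano6, Tns1, Myo1e and Syne2 that TSS belonged to another gene, A130051J06Rik, Gm31637, Gm26849 and Gm40447. The peak in Tns1, which encodes the focal adhesion protein tensin 1, was centred 249 bp from the start of Gm31637.

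The first intron held more FOS peaks than any other intron number. Of 1060 intronic peaks, 434 were in intron 1 (40.9%, exact interval 38.0 to 44.0), 176 in intron 2 (16.6%), 84 in intron 3 (7.92%) and 62 in intron 4 (5.85%). Introns past the tenth held 121 together. The share fell with the number of introns in the host but stayed above an even split among them. In hosts with 2 introns, 29 of 43 intronic peaks were in the first (67.4%, where 1 in 2 would be there if every intron had drawn peaks equally). It was 82 of 153 in hosts with 3 to 5 introns (53.6%, against 26.1%) and 102 of 245 with 6 to 10 (41.6%, against 13.0%). It was 139 of 366 with 11 to 20 introns (38.0%, against 7.04%) and 60 of 231 with 21 or more (26.0%, against 3.44%). The exact interval of the 2-intron hosts, 51.5 to 80.9, begins just above the even split. Over hosts with 2 introns or more, intron 1 held 412 of 1038 peaks (39.7%, exact interval 36.7 to 42.7), against 12.2% for an even split. Intron lengths were not measured here, so these shares are per intron and not per length of DNA.

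**Figure D2:**
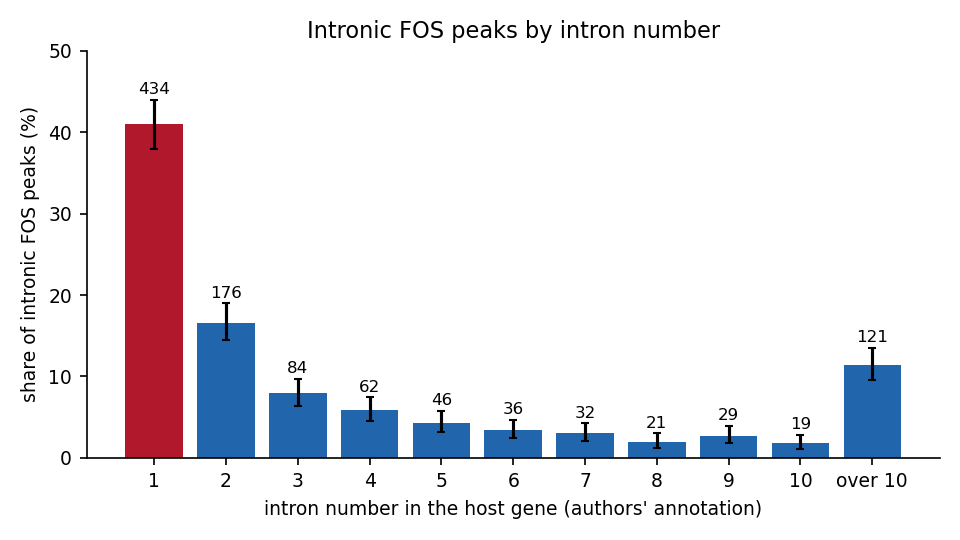
Share of the 1060 intronic FOS peaks (%) by the number of the intron in its host gene, with exact 95% intervals as error bars and the number of peaks above each bar. Intron 1 holds 434 peaks and intron 2 holds 176.

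Hosts of first-intron peaks ran from genes with a single intron to Syne2, which encodes the nuclear envelope protein nesprin 2, with 115. The median number of introns was 9.5 (quartiles 5 and 15.75), against 13 for the hosts of later-intron peaks. A later-intron peak needs a host with more than a single intron, so the classes set the direction of this difference in part. Medians here count each peak, so a host with several peaks counts more than once. The host span in the RefSeq gene table had a median of 71.7 kb (quartiles 26.6 and 148) for 431 first-intron peaks and 130 kb (quartiles 57.8 and 277) for 615 later-intron peaks. A single intron was annotated for the hosts of 22 peaks. Among these, Tshz2, a zinc finger transcription factor, had a score of 196, Snx33, a sorting nexin of endocytosis, 177, and Sertad1, a cell cycle and transcription regulator, 147.

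First-intron peaks lay at a median of 8.97 kb from the nearest TSS (95% interval of the median 7.19 to 10.6), against 42.2 kb for later-intron peaks (interval 36.4 to 45.9). The upper quartile was 24.2 kb, and they reached from 115 bp to 364 kb. Within 1 kb lay 70 of them (16.1%), against 4 of 626 later-intron peaks (0.64%). From 1 to 5 kb there were 92, from 5 to 10 kb 70, from 10 to 50 kb 159 and from 50 to 100 kb 37. By definition a first intron starts near a TSS of its own gene, so the direction of this difference is no result. The 5 nearest were those of Pacrgl at 115 bp, Arhgap19 at 149 bp, Zfp354b at 155 bp, Tax1bp1 at 164 bp and 5830415F09Rik at 169 bp. At the far end, the peak of Erbb4, a receptor for neuregulins and EGF-like ligands, was 364 kb from the nearest TSS with a score of 51. Next came peaks of Pde1a, a calcium-dependent phosphodiesterase, at 183 and 146 kb with scores of 39 and 117, although RefSeq TSSs of Pde1a lay 37.7 and 55.6 kb from them, then Frmd5, at 115 kb from the TSS of Wdr76, and Dip2c at 114 kb.

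**Figure D3:**
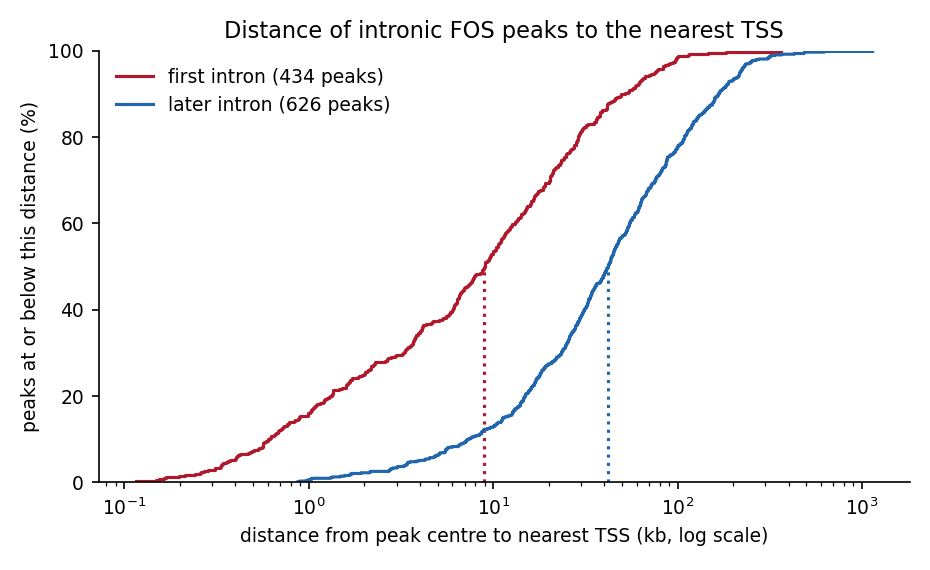
Cumulative share of peaks (%) by distance between peak centre and nearest TSS (kb, log scale), for 434 first-intron and 626 later-intron peaks. Dotted lines mark the medians of 8.97 kb for first introns and 42.2 kb for later introns.

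The median and quartiles of the score were close to those of later introns, while the highest scores of the list lay outside first introns. The score is the authors' own, of unstated scale, and serves here to rank their peaks. First-intron peaks had a median score of 68 (interval 64 to 71), with quartiles of 49 and 102 and a range of 13 to 577. Later-intron peaks had a median of 68 (interval 66 to 72), promoter peaks 64 (interval 58 to 68), intergenic peaks 68 (interval 66 to 71) and all peaks 67. Among first-intron peaks 115 of 434 (26.5%) scored 99 or more, the upper quartile of the whole list, against 26.4% of later-intron peaks and 26.0% of all peaks. Scores of 151 or more were found for 43 first-intron peaks (9.91%), against 10.1% of all peaks. The highest first-intron score was 577, against 2234 in later introns and 1277 between genes. Peaks within 1 kb of a TSS had a median score of 59.5 (interval 57 to 72), and those from 1 to 5 kb had 70.5 (interval 66 to 84), intervals that overlap. Widths had a median of 342.5 bp and ran from 268 to 1039 bp.

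**Figure D4:**
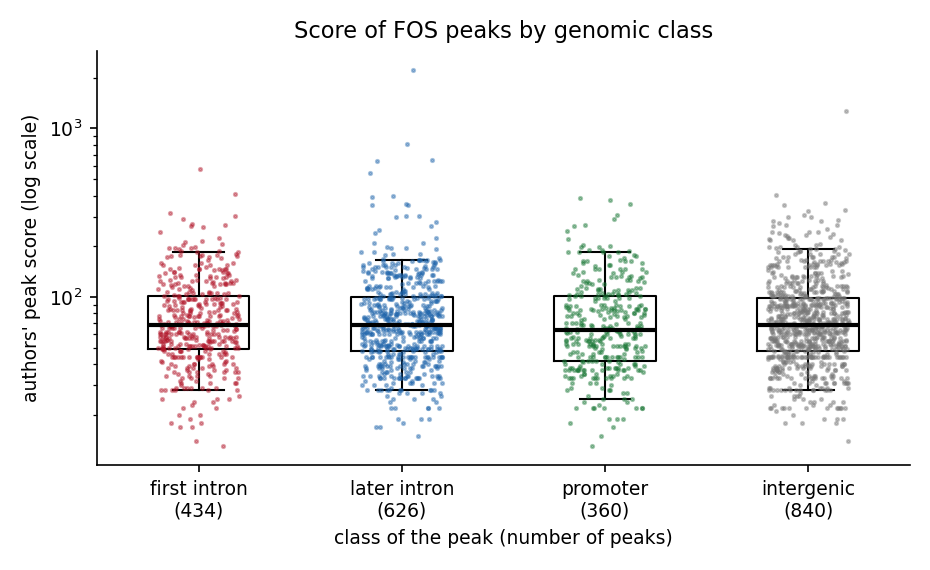
Authors' peak score (log scale) of every FOS peak in first introns, later introns, promoters and intergenic DNA. Boxes give the quartiles and the median, and whiskers the 5th and 95th percentiles. The medians are 68, 68, 64 and 68, and the boxes cover nearly the same range.

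The highest first-intron score belonged to Htra3, which encodes a secreted serine protease. Its peak at chromosome 5, 35672966 to 35673470 (mm10), scored 577, sixth in the whole list, and lay 6.56 kb downstream of the TSS. Arhgap28, a GTPase-activating protein, followed with 408 at chromosome 17, 67988816 to 67989333, lying 15.0 kb downstream. The next were Agfg2 with 316 and Dab2, a clathrin adaptor for endocytosis, with 302. Then came Fars2, the mitochondrial phenylalanyl-tRNA synthetase, with 289, the noncoding 1110036E04Rik with 272 and Nudt13, a nudix hydrolase, with 268. These peaks lay between 0.896 and 85.6 kb from the TSS.

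The other peaks of the 25 highest are given in order of score. Upp2, a uridine phosphorylase, had 264, and Tnfrsf12a, the receptor of the cytokine TWEAK, had 262 at 0.628 kb from its TSS. Pvt1, a noncoding gene beside Myc, had 243, and Ccnd3, which encodes cyclin D3, had 223. The noncoding hosts Gm20125 and D630033O11Rik had 214 and 213, Palm2 had 206 and Smim14 had 204. Aff1, a scaffold of transcription elongation, had 197, and Tshz2 had 196. Kat2b, a histone acetyltransferase, had 195, as did Mafk, a small MAF protein that pairs with NRF2 and BACH1, at 5.55 kb.

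Usp6nl, a GTPase-activating protein of endocytic traffic, had 194, and Serpinb9b, a serine protease inhibitor, had 188. Yap1, the coactivator of the Hippo pathway, had 187 at 1.16 kb. Ptprn, a protein of secretory granules, and Chst15, which sulfates chondroitin sulfate, had 184 each, and Ddr1, a collagen receptor kinase, had 179.

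Noncoding genes were a small part of the hosts. Of the 391 hosts, 368 were protein-coding and 21 long noncoding genes in the RefSeq table, and 2 names, Bc1 and Mir3098, stand at another place in that table than the peaks given to them. Among the 21, Zfp91Cntf was counted through a match to Gm44505 by an older symbol. The share of long noncoding genes among all genes or later-intron hosts was not taken. Long noncoding hosts held 24 peaks with a median score of 66.5, against 68 for the 407 peaks in protein-coding hosts. Of the 25 highest first-intron scores 4 were in long noncoding hosts, namely 1110036E04Rik, Pvt1, Gm20125 and D630033O11Rik.

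Most hosts held a single first-intron peak. There were 354 hosts with 1, 31 with 2 and 6 with 3. The 6 were Smad3, Bmp2k, Gch1, Pde1a, Bag3 and Ank3. Gch1, which encodes GTP cyclohydrolase 1, the first enzyme of tetrahydrobiopterin synthesis, had peaks of score 175, 44 and 37, and its closest pair was 466 bp apart. Bag3, a cochaperone of HSP70, had 87, 64 and 43 within 2.19 kb. Pde1a had 117, 39 and 22 over 124 kb. Ank3, a membrane skeleton anchor, had 120, 73 and 48 within 9.72 kb. In Bmp2k, a kinase, the scores were 104, 73 and 53, over 26.7 kb. Smad3, which carries activin and TGF-beta signals to the nucleus, had 67, 53 and 51 over 73.1 kb.

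Kitl, the KIT ligand that granulosa cells send to the oocyte, had peaks of score 139 and 62 lying 7.95 kb apart. Syne2 had 172 and 154, Palm2 206 and 134, Kat2b 195 and 121, and Creb3l2, a membrane-bound transcription factor, 127 and 102. More uneven pairs were those of Arhgap28 with 408 and 39, 1110036E04Rik with 272 and 56, and Pvt1 with 243 and 71. Pairs were also found in Gm20125, Pkp2, Bc1, Wsb2, Tns1, Dip2c, Naa50, Nfia, Tmtc2, Jak1, Papss2, Flrt2, Arhgap19, Ano6, Bmp6, Frmd5, Parva, Sgpp2, Wbp1l, Mbnl2, Pparg, Fmnl2 and 1810058I24Rik. Over the 37 hosts the closest pair was under 2 kb apart in 10 and over 10 kb apart in 14, with a median of 7.95 kb. In Pparg the annotation numbers the peaks 1 of 6 and 1 of 7, so they lie in first introns of different transcripts.

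**Figure D5:**
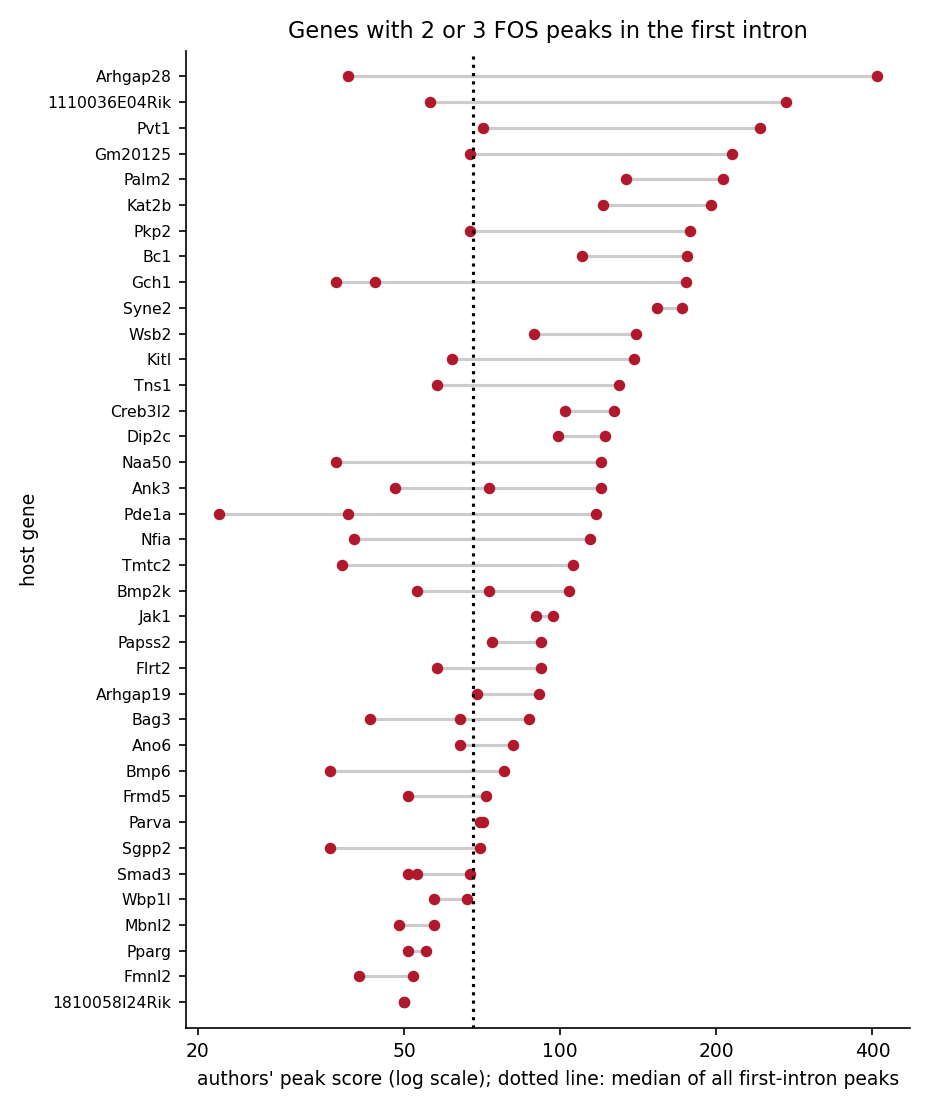
Authors' score (log scale) of each first-intron FOS peak in the 37 host genes with 2 or 3 such peaks, ordered by the best score. Points are peaks, grey lines join those of a gene, and the dotted line is the median of 68 over all first-intron peaks. Arhgap28 spans 39 to 408, while both peaks of Syne2 are over 150.

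In the authors' table the host was also the nearest gene for 392 of 434 first-intron peaks (90.3%, exact interval 87.1 to 92.9), against 396 of 626 later-intron peaks (63.3%, interval 59.3 to 67.0). The direction of this difference is again no result, since a first intron starts near a TSS of its own gene. All 70 peaks within 1 kb of a TSS had their host as the nearest gene, as did 29 of the 37 from 50 to 100 kb away. For the 42 others that table names another gene as nearest, in 10 of them a microRNA gene. The RefSeq window table puts the host's own TSS nearer than that gene for 10 of the 42, Upp2, Ccnd3, Mrpl48 and Wbp1l among them. It holds a window of the host for 29 of the 42. The median score of all 42 was 74.5, against 67 for the peaks whose host was nearest, both given without intervals.

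Among these the highest score was at Upp2, where the authors' table puts a peak of 264 at 23.0 kb upstream of Acvr1, a type I receptor for activin and BMP, while a RefSeq TSS of Upp2 itself lay 22.5 kb away. The peak in Ccnd3 (223) was 9.04 kb upstream of Taf8, a subunit of the general transcription factor TFIID, and 6.28 kb from a RefSeq TSS of Ccnd3. That in Chst15 (184) was 36.7 kb upstream of Gm10584, and that in Rbm20, a splicing factor, (160) was 91.5 kb upstream of Pdcd4, an inhibitor of translation. Both peaks given to Bc1 (176 and 110) lay upstream of Cirbp, a cold-inducible RNA-binding protein, at 1.84 and 3.82 kb. In Add1, which encodes a spectrin-binding adducin, a peak of 147 was nearest to Mir7036b. In the authors' table Peli2 (127) was nearest to Gm6498 and Apc, the brake on WNT signalling, (98) to Gm10548. The peak in Mrpl48 (106) was nearest to Rab6a there, at 16.7 kb, but lay 544 bp from a RefSeq TSS of Mrpl48.

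In all, 49 first-intron peaks lay upstream of their nearest TSS. In 21 of the 49 that TSS belonged to the host itself. In the authors' annotation this places the peak between an outer and an inner start of the same gene. Nr1h4, the bile acid receptor, had such a peak of score 147 at 20.6 kb, Nr4a2, an early-response orphan receptor, 1 of score 94 at 1.87 kb, and Rbpj, the DNA-binding partner of NOTCH, 1 of score 97 at 1.46 kb. Pparg and Bmpr1b, a BMP receptor that granulosa cells use, were others, with scores of 51 and 72. The RefSeq window table gives the same distances for Nr1h4, Rbpj and Bmpr1b. Its nearest TSS of Nr4a2 lay 7.09 kb from the peak, and that of Pparg 20.6 kb, against 39.1 kb in the authors' table.

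Few hosts had a promoter peak as well, yet their share was above that of protein-coding genes at large, a difference that was not tested. A peak of the authors' promoter class was assigned to 14 of the 391 hosts (3.58%), against 22 of the 531 hosts of later-intron peaks (4.14%), and 32 of the 391 also held a later-intron peak. Among the 359 hosts whose names are protein-coding symbols of the RefSeq table, 12 had a promoter peak (3.34%), against 311 of all 21887 such genes (1.42%). A later-intron peak was held by 30 of the 359 (8.36%), against 485 of the 21887 (2.22%). For 291 hosts the first-intron peak was the only peak in them or assigned to them. In the 14 genes with both, the best first-intron peak scored higher in 6 and the promoter peak in 8. Gch1 had 175 in the intron and 35 at the promoter, and Tmbim1, an inhibitor of cell death, had 147 and 70. Fosl2, which encodes the FOS relative FRA2, had 60 in the intron and 131 at the promoter, 3.90 kb apart. Lmna had 112 and 188, lying 10.7 kb apart. The authors' table puts that promoter-class peak of Lmna upstream of its nearest TSS, at a signed distance of -10320 bp. Adgrg1, an adhesion receptor, had 18 and 99. Fscn1, an actin-bundling protein, had 60 and 51, and Anxa2, a calcium-dependent membrane protein, had 56 and 50. The others with both were 1700012D14Rik, 2010003K11Rik, 9330111N05Rik, Atp5d, Fgd4, Lactb2 and Smim3.

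Gene lists of ovulation and of signalling were then read against first introns. Of the 535 genes in 24 lists, 35 hosted a first-intron peak (6.54%), against 1.68% of the 21887 protein-coding genes of the RefSeq table. For later introns it was 42 of 535 (7.85%), against 2.29%. The lists were drawn up with earlier results of these peaks known, so these shares are a description and carry no test.

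Factors that bind AP-1 and related sites had 4 hosts among 22 genes. These were Mafk (195), Nfe2l2, the antioxidant regulator NRF2 (147, lying 19.0 kb downstream), Bach1, a repressor that competes with NRF2 (74) and Fosl2 (60). One gene of that list hosted a later-intron peak. Of 27 immediate early genes 3 were hosts, namely Csrnp1 (160), Nr4a2 (94) and Klf6, a zinc finger factor (71). In the Hippo list of 21 genes there were 2, Yap1 (187) and its DNA-binding partner Tead1 (52), and no later-intron host. Of 34 chromatin modifiers 3 were hosts, among them Kdm6b, which removes the H3K27 methyl mark, at 151 and Crebbp, a histone acetyltransferase, at 29.

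Genes of activin, TGF-beta and BMP signalling hosted 8 first-intron peaks in 5 of 37 genes, with a median score of 55. They were Bmp6, a ligand (78 and 36), the receptors Bmpr1b (72), Acvr1 (57) and Acvr1b (17), and Smad3. Actin and adhesion genes had 6 hosts of 45, among them Tns1 (130 and 58), Lmna (112), Rock2, a kinase of the actin cytoskeleton (66), and the integrin subunits Itgav (46) and Itgb5 (28). Of 39 matrix and protease genes 2 were hosts, the cell surface proteoglycan Sdc4 (124) and the laminin subunit Lama1 (106). Among 39 genes of the EGF receptor and MAP kinase list there were Egfr (97) and Erbb4 (51).

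Of 24 granulosa transcription factors 3 were hosts, Epas1, a hypoxia-inducible factor (173, lying 16.0 kb downstream), Smad3 (67) and Tead1, and 8 hosted later-intron peaks. Epas1 was also the 1 host among 21 hypoxia and vascular genes. Of 32 ovulatory genes 2 were hosts (6.25%), beside 6.54% of all listed genes and 1.68% of all protein-coding genes. They were Fosl2 and Pparg, a nuclear receptor of lipid metabolism, with scores of 60, 55 and 51. As the nearest gene of some peak of any class, 22 of the 32 were named, beside 142 of all 535 listed genes. No such share was taken over all protein-coding genes, so the 22 cannot be read as a result about this list. Pparg was the 1 host among 28 nuclear receptors and coregulators. Steroid synthesis, prostaglandin and cAMP lists, with 16, 18 and 31 genes, had no first-intron host. Their later introns hosted peaks in 2, 1 and 3 genes. As the nearest gene of some peak, 9, 5 and 4 of their genes were named, again without a share over all protein-coding genes. Lists of this size would often hold no first-intron host at the 1.68% share of all protein-coding genes. The authors' table names Cyp17a1, the enzyme of androgen synthesis, as nearest to a first-intron peak of Wbp1l of score 57, at 29.8 kb, but a RefSeq TSS of Wbp1l itself lay 19.8 kb away.

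Single hosts were found in the lists of cholesterol handling (24 genes) and of the clock (21 genes), namely Npc1, a cholesterol exporter of lysosomes, with 77 and Npas2, a partner of BMAL1, with 68. The PI3K list of 26 genes had Rps6ka2, a ribosomal S6 kinase (91), and Irs1, an insulin receptor substrate (57). Among 19 oxidative stress genes there were Nfe2l2 and Gpx1, a glutathione peroxidase (58). Kitl was the 1 host among 12 granulosa cell markers (8.33%). Marker lists of theca and stroma, of endothelial and immune cells and of the oocyte, with 10, 12 and 10 genes, had no first-intron host. The list of 27 genes of unrelated tissues had none either. That list and the endothelial and immune list each had 1 gene that hosted a later-intron peak. At the 1.68% share of all protein-coding genes, lists of this size would often hold no host. These counts therefore cannot tell the marker lists apart.

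Across the autosomes the share of peaks in first introns ran from 12.7% on chromosome 18 (9 of 71 peaks) to 23.4% on chromosome 5 (32 of 137), and the exact intervals of these extremes, 5.96 to 22.7 and 16.6 to 31.3, overlap. The X chromosome had 1 first-intron peak among its 15 peaks. A second annotation column in the authors' table gave the same intron number for 414 of the 434 peaks. For 17 it gave intron 2 and for 3 intron 3, Gsn, Pde1a and Pparg among the hosts, and 8 later-intron peaks were in intron 1 there. It gave another host name for 5 of the 434, as in Tmbim1, where it gave Pnkd. The peaks of Palm2 are among the 5, where it gave Pakap, the RefSeq symbol of the same gene.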

How the data were processed

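The data analysed were 1 annotated peak table of 1 FOS library. Per the file headers, the authors ran the annotatePeaks program of HOMER on a narrowPeak file. Per the submitters' processing notes, the tools were BWA and MACS2 2.2.7.1, besides Trim Galore and deepTools 3.5.1, with genome mm10. Their roles, the threshold of the peak calls, the control and any filters are not stated in the sources used here. The deposited score is the authors' whole-number peak score per the file headers, of unstated scale, used to describe and rank peaks within this list. Other deposited values are positions and the signed distance in bp from peak centre to nearest TSS. Peaks were called on 1 library and not pooled, and depth is unknown.

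Host gene, intron number and number of introns were read from the annotation text. Of 391 host names, 378 matched the RefSeq gene table (GRCm38.p6) by symbol and 11 by an older symbol at the place of the peak, and 2 matched at another place. Shares carry exact Clopper-Pearson 95% intervals and medians 95% intervals from binomial order statistics, both tested on simulated data. With 1 library, no test was run. Named are the 25 highest-scoring peaks, hosts with 2 or more, up to 4 hosts per list, the 10 highest whose host is not nearest, the 5 nearest to and farthest from a TSS and hosts with a promoter peak. Hosts with a single intron, those with a RefSeq TSS within 1 kb, the examples upstream of an inner TSS, Wbp1l, and further list members were chosen after their values were seen. The peaks to describe and the 24 lists were chosen with earlier results of these data known. Some list members are not reported here. Promoter sequences are RefSeq's. Python 3.11.15, numpy 2.4.6, pandas 2.3.3, scipy 1.17.1 and matplotlib 3.10.9 were used.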

Additional observations from a re-analysis of the deposited data

How the results depend on the processing

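The share of peaks in a first intron kept within its interval under all 10 alternatives, as did the share whose host is nearest under the 9 that could give it. Listed genes numbered 35 by host and 35 by nearest gene, and 34 of them were shared. The median score was 99 with peaks at or above the median of the list, 139 with those at 99 or more and 57 with peaks at or under the median width, the first 2 by construction. The median distance was 11.9 kb with peaks more than 1 kb from a TSS, also by construction. The share of intronic peaks in a first intron was 36.9% with those peaks and 49.7% with peaks whose host is also the nearest gene, both by construction, since the first setting took out 70 first-intron and 4 later-intron peaks and the second kept 392 of 434 and 396 of 626. Requiring intron 1 in both annotation columns and protein-coding hosts were added after seeing the data. AP-1 alternatives over peak sequences were not run, since no genome was used here. No paired analysis was possible because there is 1 FOS library. With 1 library no replicate could be left out, and with depth unknown no limit from depth can be given.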
